A study of Homo sapiens with 12 samples.

Results

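SRC family kinases are non-receptor tyrosine kinases that sit on the inner face of the plasma membrane and phosphorylate receptors, adaptors and other kinases. The genes described here are 7 members of that family (SRC, LYN, FYN, LCK, BLK, YES1 and FGR), CSK, whose product switches the family off, and ABL1, a related kinase. They were taken by symbol, and are 9 of the 43735 genes listed in the count table. All 9 were listed, and 7 of them had enough reads to be tested among 14085 genes. LCK and FGR were not tested.

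Each kinase of the family carries a tyrosine near its C-terminal end. When CSK phosphorylates it, the tail folds back onto the kinase and holds it inactive, and receptor-type phosphatases such as CD45 remove that phosphate again. In B-lineage cells LYN, FYN and BLK phosphorylate the signalling chains CD79A and CD79B of the B-cell receptor, which recruits SYK and then BTK. LCK belongs to T cells, FGR to myeloid cells, and SRC and YES1 are expressed in most tissues. ABL1 is regulated through its own SH3 and SH2 domains, shuttles between cytoplasm and nucleus, and is known for its fusion with BCR in chronic myeloid leukaemia.

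RNA was sequenced from 12 cultures of the human multiple myeloma cell lines MM1S and MM1R, 3 in each of 4 groups. The labels describe MM1S as glucocorticoid sensitive and MM1R as glucocorticoid resistant, and both lines come from the same patient, so that each stands for 1 tumour. Each line was left untreated or exposed to withaferin A (WA). WA is a steroidal lactone from Withania somnifera that binds cysteines covalently, and the labels give 1 µM for 3 h. All cells were grown in RPMI-1640 with serum, and the labels name no vehicle for the untreated cultures. Cultures of a group differed in passage number, which was 16, 22 and 23 for MM1S and 4, 6 and 7 for MM1R. An untreated and a WA culture shared each number within a line. The lines shared none, so that line and passage number cannot be told apart.

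Depth was 17625110 to 19368343 reads on genes per culture, of which the 9 genes together took 0.0417% to 0.0585%. All 9 plasma cell markers were read in every culture, among them SDC1 with at least 10066 reads and JCHAIN with at least 94755. The B-cell genes PAX5 and MS4A1 had at most 3 and 2 reads. CD3D and CD3G had at most 1 and 0 reads, although the T-cell genes CD28 and CD3E had 5487 to 9372 and 63 to 211, and MPO, LYZ and CSF1R had at most 0, 2 and 4. No pair of cultures of a group agreed within sampling noise, since their counts differed by 8.06 to 44.3 times that noise (chi-square per degree of freedom). Values are given in CPM, the reads of a gene scaled to library size by the TMM method, with cultures in the order of rising passage number. Log2 fold changes (log2FC) and adjusted p-values come from the quasi-likelihood test of edgeR, adjusted over the 14085 genes by the Benjamini-Hochberg method, unless DESeq2 is named. They measure the spread between passages of 1 line.

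CSK stood far above the kinases it regulates. Per kilobase of exonic sequence, its level in untreated MM1S was 85.3 CPM, against 8.42 for LYN, 5.49 for ABL1, 2.29 for YES1, 2.20 for FYN, 0.87 for SRC and 0.0069 for BLK. In untreated MM1R the levels per kilobase were 95.3 CPM for CSK, 10.3 for LYN, 8.11 for ABL1, 1.72 for YES1, 1.48 for FYN, 1.43 for SRC and 0.13 for BLK. With WA the order was the same in both lines, with 63.2 CPM per kilobase for CSK in MM1S and 74.1 in MM1R. The ranges of neighbours in the order overlapped for YES1 and FYN in both untreated groups, for FYN and SRC in untreated MM1R, and for LYN and ABL1 in MM1R with WA. All other neighbours were separated. Dividing by the longest annotated transcript in place of all exonic bases put FYN above YES1 in untreated MM1S and untreated MM1R. In untreated MM1R it put SRC above YES1 too. In MM1S with WA the means were then nearly equal, 4.34 CPM per kilobase for FYN and 4.32 for YES1.

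The sequences shown here are windows around an annotated start of CSK and of YES1. These are the 2 members with the clearest shift in the same direction with WA in both lines. Each runs from 250 bases before to 50 bases after a start in RefSeq (GRCh38.p14), 5′ to 3′ on the strand of the gene. CSK is at chr15:74788294-74788593 (plus strand), and YES1 at chr18:812193-812492 (minus strand). Capitals mark GGGCGG or its reverse complement, the GC box bound by SP1.
CSK: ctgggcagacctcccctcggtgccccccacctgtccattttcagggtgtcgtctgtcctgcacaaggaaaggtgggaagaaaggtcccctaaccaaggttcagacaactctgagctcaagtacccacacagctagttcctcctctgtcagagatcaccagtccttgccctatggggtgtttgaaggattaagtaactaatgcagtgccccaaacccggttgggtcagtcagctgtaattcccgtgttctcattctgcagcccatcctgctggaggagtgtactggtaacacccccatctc
YES1: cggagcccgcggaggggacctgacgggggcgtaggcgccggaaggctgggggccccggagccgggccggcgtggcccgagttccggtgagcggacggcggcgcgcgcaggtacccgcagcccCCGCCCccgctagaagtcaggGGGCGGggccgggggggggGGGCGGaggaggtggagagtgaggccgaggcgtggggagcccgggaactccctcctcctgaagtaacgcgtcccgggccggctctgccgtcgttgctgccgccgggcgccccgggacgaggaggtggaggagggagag
The YES1 window held 3 GC boxes, at positions -128, -107 and -88 from the start, and 78.7% of its bases were G or C. The CSK window held none and had a GC content of 54.3%, against a median of 58.7% over 35116 promoters of the same length. A GC box was present in 45% of those promoters. Neither window held the heat shock element as GAANNTTC (6.77% of promoters) or TTCNNGAA (7.74%), the antioxidant response core TGACNNNGC (13.3%) or a CCAAT box (34.6%), all searched on both strands. These are matches of letters, and counts per gene do not show which start was used. Whether the start in the CSK window is the outermost one of the gene was not checked. The 2 windows therefore do not compare the main promoters of CSK and YES1. Windows were given for 6 of the 9 genes.

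CSK fell with WA in both lines, to 0.740 of the untreated level in MM1S and to 0.777 in MM1R. CSK (chromosome 15, 75074421 to 75095538, plus strand, GRCh37, 13 exons) encodes the C-terminal SRC kinase. Its CPM in MM1S were 364, 395 and 404 untreated and 282, 288 and 291 with WA. In MM1R they were 409, 435 and 456 untreated and 346, 356 and 308 with WA. Every WA culture lay below every untreated culture of its line, and no pair of the same passage went the other way. WA gave a log2FC of -0.43 in MM1S (SE 0.097, adjusted p = 0.013) and -0.36 in MM1R (SE 0.097, adjusted p = 0.024). Both passed the limit set for WA, an adjusted p of 0.05, which 10.5% of all tested genes passed in MM1S and 14% in MM1R. DESeq2 gave adjusted p = 8.8e-05 and 0.0016. With passage as a block, the adjusted p was 0.0025 and 0.0054. Between 5068 and 8127 reads lay behind each value. The call in MM1S was lost without untreated MM1S of passage 22 (log2FC -0.42, adjusted p = 0.058) or 23 (-0.40, adjusted p = 0.067). The call in MM1R was lost without untreated MM1R of passage 6 (-0.37, adjusted p = 0.09) or 7 (-0.33, adjusted p = 0.078), or without WA-exposed MM1R of passage 4 (-0.38, adjusted p = 0.05) or 7 (-0.28, adjusted p = 0.13). It was also lost with no filter on low counts (adjusted p = 0.074) and when the 6 MM1R libraries were fitted alone (adjusted p = 0.052).

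YES1 moved the other way. YES1 (chromosome 18, 721588 to 812547, minus strand, GRCh37, 12 exons) encodes a broadly expressed kinase close to SRC. In MM1R its CPM were 9.53, 9.77 and 7.05 untreated and 14.2, 16.7 and 22.7 with WA. In MM1S they were 8.50, 14.4 and 12.2 untreated and 14.7, 19.2 and 26.3 with WA. The groups did not overlap in either line, although in MM1S the lowest WA culture lay only just above the highest untreated one. YES1 rose 2.03-fold in MM1R (log2FC 1.02, SE 0.25, adjusted p = 0.016). In MM1S it was 1.71-fold higher (log2FC 0.78, SE 0.25, adjusted p = 0.061), short of the limit. Blocking on passage, which pairs the cultures within a line, gave a log2FC of 0.77 with adjusted p = 0.011 in MM1S, past the limit, and 1.00 with adjusted p = 0.0025 in MM1R. DESeq2 gave adjusted p = 0.028 in MM1S and 0.0016 in MM1R. The MM1R call was lost without untreated (log2FC 0.88, adjusted p = 0.071) or WA-exposed MM1R of passage 7 (0.83, adjusted p = 0.071), and in MM1S the limit was passed without WA-exposed MM1S of passage 16 (0.96, adjusted p = 0.03). On the other strand, long non-coding genes overlap YES1 exons by 154 and 159 bases, and whether the counting used strand is not given in the sources used here.

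**Figure D1:**
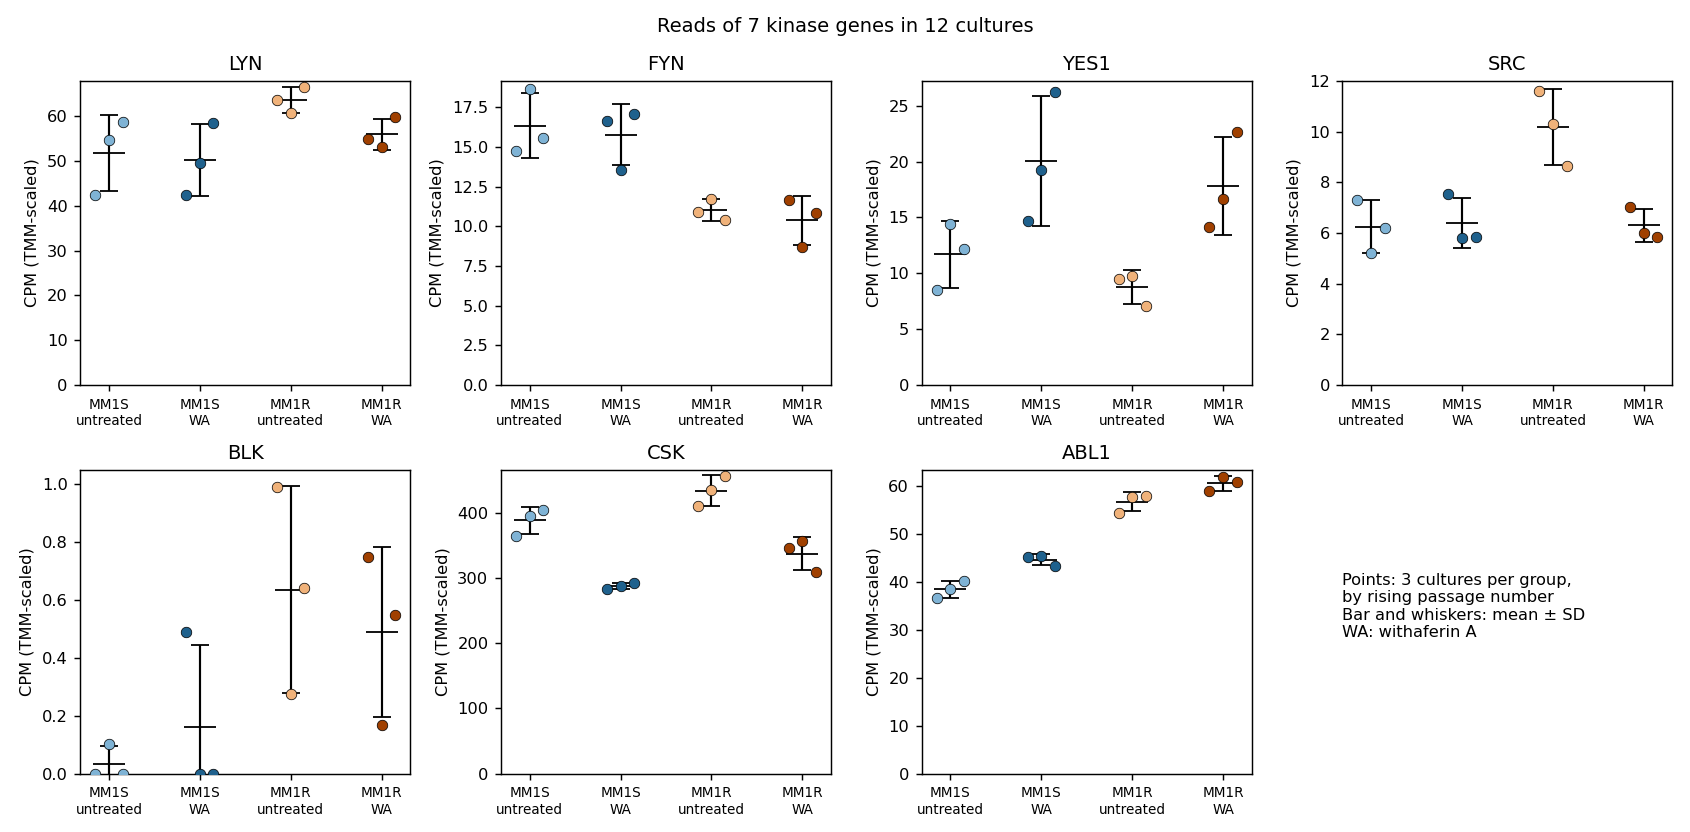
CPM of the 7 tested members (y axes from 0) in each of the 12 cultures, with the mean and SD of 3 cultures per group as bars. CSK lies lower and YES1 higher with WA in both lines, SRC stands out in untreated MM1R at 8.63 to 11.6 CPM, and FYN is lower and ABL1 higher in MM1R than in MM1S.

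Within pairs of the same passage, the sizes of both changes varied with the pair. The log2 change of YES1 (CPM with a pseudocount of 0.5) was 0.75, 0.40 and 1.08 in the MM1S pairs and 0.55, 0.74 and 1.62 in the MM1R pairs. That of CSK was -0.37, -0.46 and -0.47 in MM1S and -0.24, -0.29 and -0.56 in MM1R. The MM1R pair of passage 7 thus had both the strongest increase of YES1 and the strongest decrease of CSK among the 6 pairs.

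**Figure D2:**
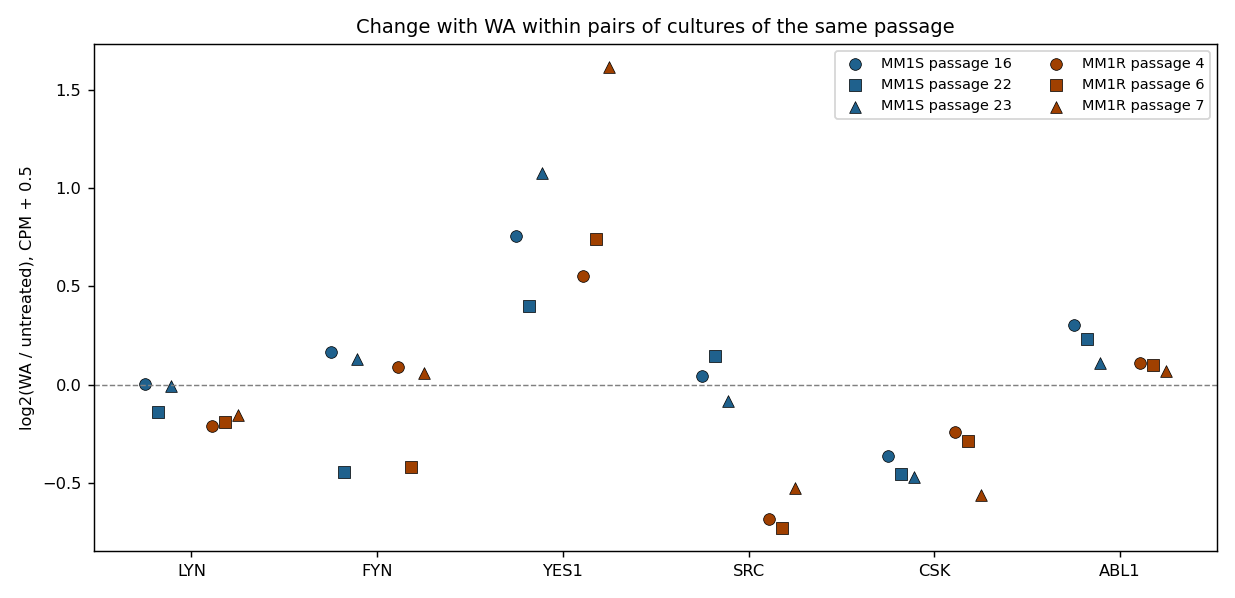
Log2 ratio of WA to untreated CPM (pseudocount 0.5) within each of the 6 pairs of cultures, by gene, with 1 symbol per passage. YES1 and ABL1 lie above 0 and CSK below 0 in every pair, SRC lies between -0.73 and -0.53 in MM1R and on both sides of 0 in MM1S.

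SRC fell with WA in MM1R and had no called change in MM1S. SRC (chromosome 20, 35973088 to 36034453, plus strand, GRCh37, 14 exons) encodes the founding member of the family. Its CPM in MM1R were 11.6, 10.3 and 8.63 untreated and 7.04, 6.02 and 5.84 with WA. In MM1S they were 7.31, 5.22 and 6.21 untreated and 7.53, 5.82 and 5.84 with WA. Untreated MM1R lay above the other groups, which overlapped each other. With WA it stood at 0.619 of the untreated level in MM1R (log2FC -0.69, SE 0.19, adjusted p = 0.025). In MM1S the log2FC was 0.03 (95% interval -0.37 to 0.44, adjusted p = 0.94). The interaction of line and WA was -0.73 (SE 0.27, unadjusted p = 0.016, adjusted p = 1), and -0.73 with passage as a block (unadjusted p = 0.0024, adjusted p = 1). No difference between the lines was therefore shown for SRC at the level of all genes. The call in MM1R was lost without untreated MM1R of passage 4 (-0.59, adjusted p = 0.07) or 6 (-0.69, adjusted p = 0.077), or without WA-exposed MM1R of passage 6 (-0.64, adjusted p = 0.085) or 7 (-0.62, adjusted p = 0.1). These values rest on 96 to 223 reads per culture.

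LYN and FYN, the family members that serve the B-cell receptor, did not pass the limit with WA in either line. LYN (chromosome 8, 56792394 to 56926728, plus strand, GRCh37, 13 exons) was the most abundant family member. Its CPM were 42.4, 54.7 and 58.7 in untreated MM1S, 42.5, 49.6 and 58.5 in MM1S with WA, 63.7, 60.8 and 66.6 in untreated MM1R and 54.8, 53.2 and 59.8 in MM1R with WA. The WA culture was the lower one in 2 of 3 MM1S pairs and in 3 of 3 MM1R pairs, and the groups overlapped in MM1S. The log2FC was -0.05 in MM1S (95% interval -0.34 to 0.25, adjusted p = 0.88) and -0.19 in MM1R (95% interval -0.48 to 0.11, adjusted p = 0.42). Blocking on passage narrowed the interval in MM1R to -0.37 to -0.01 (adjusted p = 0.11).

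FYN (chromosome 6, 111981535 to 112194655, minus strand, GRCh37, 14 exons) had CPM of 14.8, 18.6 and 15.6 in untreated MM1S and 16.6, 13.6 and 17.1 with WA. In MM1R its CPM were 10.9, 11.7 and 10.4 untreated and 11.6, 8.66 and 10.8 with WA. All MM1R cultures lay below all MM1S cultures, and within a line the groups overlapped. For WA the log2FC was -0.05 in MM1S (95% interval -0.38 to 0.28, adjusted p = 0.89) and -0.08 in MM1R (95% interval -0.42 to 0.25, adjusted p = 0.79).

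LCK and FGR were at or below the floor of 3 reads in every culture, and BLK had at most 19 reads. BLK (chromosome 8, 11344403 to 11422108, plus strand, GRCh37, 13 exons), a B-cell kinase, had 19, 5 and 11 reads in untreated MM1R and 14, 3 and 9 in MM1R with WA. In MM1S it had 0, 2 and 0 reads untreated and 9, 0 and 0 with WA, so that 1 culture held all of its reads after WA. A second entry of the same symbol with a copy number held 1 to 7 reads per culture and was left out. The mean of BLK in untreated MM1R, 0.635 CPM, was 4.14 times the floor of 3 reads in untreated MM1S, 0.153 CPM. That ratio is no lower bound, since it leaves out the spread of untreated MM1R, 0.274 to 0.989 CPM. BLK passed the filter on low counts through the MM1R cultures. The fitted log2FC of 3.98 (SE 1.23, adjusted p = 0.051) depends on how counts of 0 are treated and is no bound. The floor covers counting error only.

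LCK (chromosome 1, 32716845 to 32751766, plus strand, GRCh37, 13 exons), the kinase of the T-cell receptor, had 0, 2 and 1 reads in untreated MM1S, 3, 0 and 0 in MM1S with WA and 0 in all 6 MM1R cultures. FGR (chromosome 1, 27938575 to 27961696, minus strand, GRCh37, 13 exons) had 0 reads in all 12 cultures. At this depth a count of 0 allows up to 3 reads per culture, or 0.149 to 0.183 CPM.

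ABL1 was higher in MM1R than in MM1S and was not called with WA in either line. ABL1 (chromosome 9, 133588430 to 133763062, plus strand, GRCh37, 11 exons) had CPM of 36.6, 38.5 and 40.1 in untreated MM1S, 45.2, 45.3 and 43.3 in MM1S with WA, 54.4, 57.7 and 57.9 in untreated MM1R and 58.8, 61.8 and 60.8 in MM1R with WA. The 4 groups did not overlap, and the WA culture was the higher one in all 6 pairs. Exposure to WA gave a log2FC of 0.22 in MM1S (95% interval 0.02 to 0.41, adjusted p = 0.15) and 0.09 in MM1R (95% interval -0.10 to 0.29, adjusted p = 0.55). Neither passed the limit, and neither did so with passage as a block (adjusted p = 0.085 and 0.44). A further annotated gene on the same strand shares 99 exonic bases with ABL1.

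Of the 7 tested members, 3 passed the limit for WA in MM1R (adjusted p of 0.05), namely YES1, higher, and SRC and CSK, lower. In that comparison 14% of all tested genes were called, 7.55% higher and 6.46% lower. In MM1S 1 of 7 was called, CSK, lower, where 10.5% of all genes were called, 6.25% higher and 4.23% lower. The count in MM1R fell to 1 without untreated MM1R of passage 6 or 7 and to 0 without WA-exposed MM1R of passage 7. The calls among all tested genes fell there too, from 1973 to 950, 1215 and 1074 in that order. In MM1S 0 members were called without untreated MM1S of passage 22 or 23, and 729 and 726 of all genes in place of 1476. There, 2 members were called without WA-exposed MM1S of passage 16, with 930 of all genes, and with passage as a block, with 24.1% of them. The interaction of line and WA was called for 0 members by edgeR and by DESeq2, and 1 member, SRC, had an unadjusted p under 0.05. Among all genes 0% were called by edgeR, 1 gene was called by DESeq2, and 0.689% had an unadjusted p under 0.05. The intervals of that difference were -0.51 to 0.99 for YES1 and -0.22 to 0.36 for CSK, which leaves differences between the lines of these sizes possible.

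**Figure D3:**
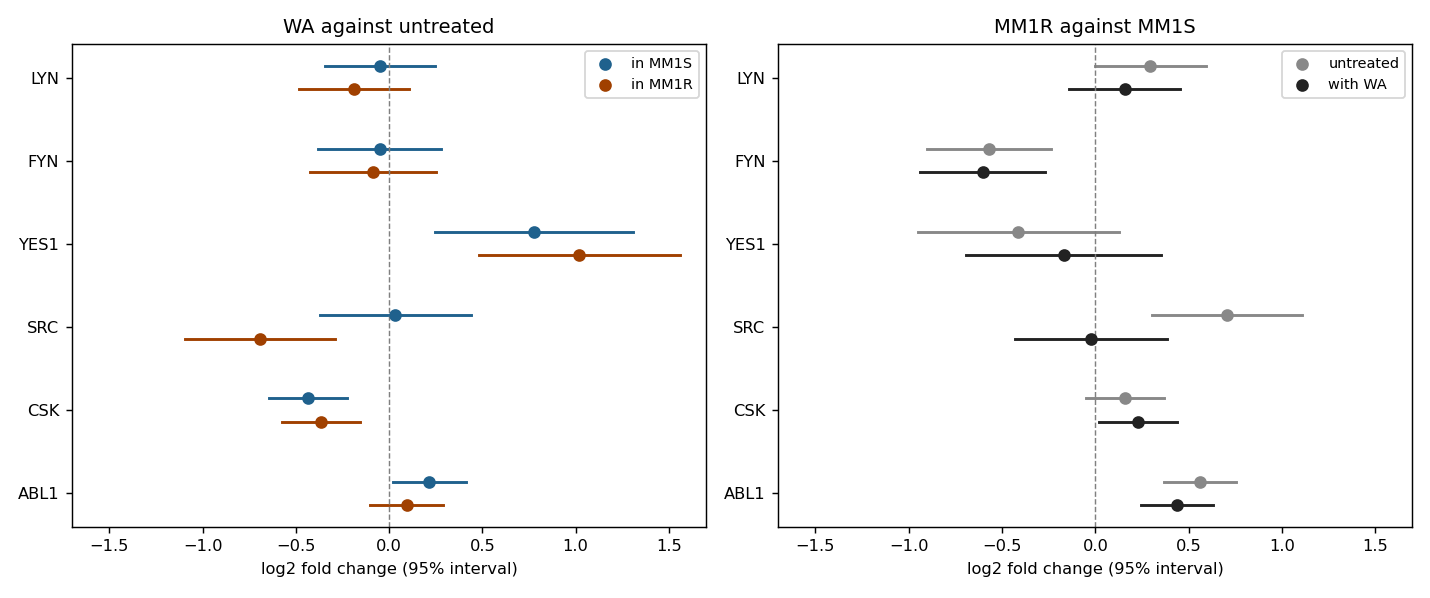
Log2FC values with 95% intervals from the fit of 12 libraries for 6 members, for WA against untreated in each line (left) and for MM1R against MM1S in each treatment (right). BLK is left out because its interval is several times wider. The intervals of CSK lie below 0 and those of YES1 above 0 in both lines, and those of ABL1 above 0 and FYN below 0 in both comparisons of the lines.

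The comparison of the lines asked whether the kinase genes differ in mRNA between glucocorticoid-resistant and glucocorticoid-sensitive cells. At an adjusted p of 0.01 and a log2FC beyond 1 in either direction, 0 of the 7 members were called between untreated MM1R and untreated MM1S, where 2.97% of all genes were. DESeq2 called 0 as well, and 4 members, among them BLK, had an unadjusted p under 0.05, as had 25.9% of all genes. Without the limit on fold change 1 member was called, ABL1, against 4.83% of all genes. ABL1 was 1.48-fold higher in MM1R (log2FC 0.56, SE 0.091, adjusted p = 0.0013), and its adjusted p was 0.016 without untreated MM1R of passage 6. SRC was 1.63-fold higher (log2FC 0.71, SE 0.19, adjusted p = 0.026), and FYN stood at 0.674 of its MM1S level (log2FC -0.57, SE 0.16, adjusted p = 0.03), both short of 0.01. DESeq2 put both past it (adjusted p = 0.007 and 0.0078), so that 3 members passed 0.01 alone with that test. The log2FC was 0.30 for LYN (95% interval 0.00 to 0.59, adjusted p = 0.19), 0.16 for CSK (-0.05 to 0.37, adjusted p = 0.32) and -0.41 for YES1 (-0.95 to 0.13, adjusted p = 0.33).

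With WA in both lines, 0 of 7 members were called at both limits by edgeR and by DESeq2, where 3.04% of all genes were, and 3 members had an unadjusted p under 0.05, as had 28% of all genes. At the adjusted p alone 1 was called, again ABL1, against 4.94%, and DESeq2 called 2, ABL1 and FYN. The log2FC of ABL1 was 0.44 (SE 0.091, adjusted p = 0.0066), and its adjusted p lay above 0.01 without untreated MM1S of passage 22 (0.015) or 23 (0.013), WA-exposed MM1S of passage 22 (0.024) or 23 (0.04), untreated MM1R of passage 6 (0.021), or WA-exposed MM1R of passage 4 (0.018), 6 (0.028) or 7 (0.017), with no filter on low counts (0.046), and when the 6 WA libraries were fitted alone (0.03). That of FYN was -0.60 (SE 0.16, adjusted p = 0.023, and 0.0056 with DESeq2). SRC had nearly equal means here, with a log2FC of -0.02 (95% interval -0.43 to 0.39, adjusted p = 0.95). LYN, YES1, CSK and BLK had log2FC values of 0.16, -0.17, 0.23 and 1.55 with adjusted p = 0.49, 0.69, 0.14 and 0.33. The comparisons with and without WA use different cultures of the same lines. The summed level of the 9 plasma cell markers was 10919 to 12273 CPM in untreated MM1S and 16998 to 18686 CPM in untreated MM1R, and 9948 to 12354 against 13212 to 16938 with WA. JCHAIN weighs most in this sum, with 94755 to 243590 reads per culture against at most 28750 for any other of these markers. Of the 9 markers, 0 were called between the lines in either treatment, where 2.97% of all genes were called untreated and 3.04% with WA. The median log2FC of the markers was 0.29 untreated and 0.19 with WA. The part of the summed level in the differences between the lines was not tested. In RNA from whole cultures, fewer cells that carry a transcript and less of it per cell cannot be told apart.

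The mean shares of the members in the family sum differed between the groups. These shares were not tested and depend on the exonic lengths used. They are parts of 1 sum, so that a higher share of 1 member lowers the others. Of the summed level per kilobase of the 7 family members, LYN held 60.8% ± 2.66 (SD, n = 3) in untreated MM1S, 53.7% ± 1.79 in MM1S with WA, 68.5% ± 3.40 in untreated MM1R and 60.8% ± 1.86 in MM1R with WA. YES1 held 16.4% ± 2.24, 25.6% ± 3.63, 11.4% ± 1.90 and 23.2% ± 3.78 in the same order. FYN held 16.0%, 14.2%, 9.84% and 9.38%, and SRC 6.52%, 6.07%, 9.44% and 5.95%. The share of YES1 lay above that of FYN in every WA culture with all exonic bases as length. With the longest transcript, FYN and YES1 had nearly equal means in MM1S with WA, 4.34 and 4.32 CPM per kilobase. The family sum was 13.8 ± 1.95 and 15.1 ± 2.35 CPM per kilobase in MM1S without and with WA, and 15.1 ± 0.34 and 14.96 ± 1.39 in MM1R, which overlap.

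**Figure D4:**
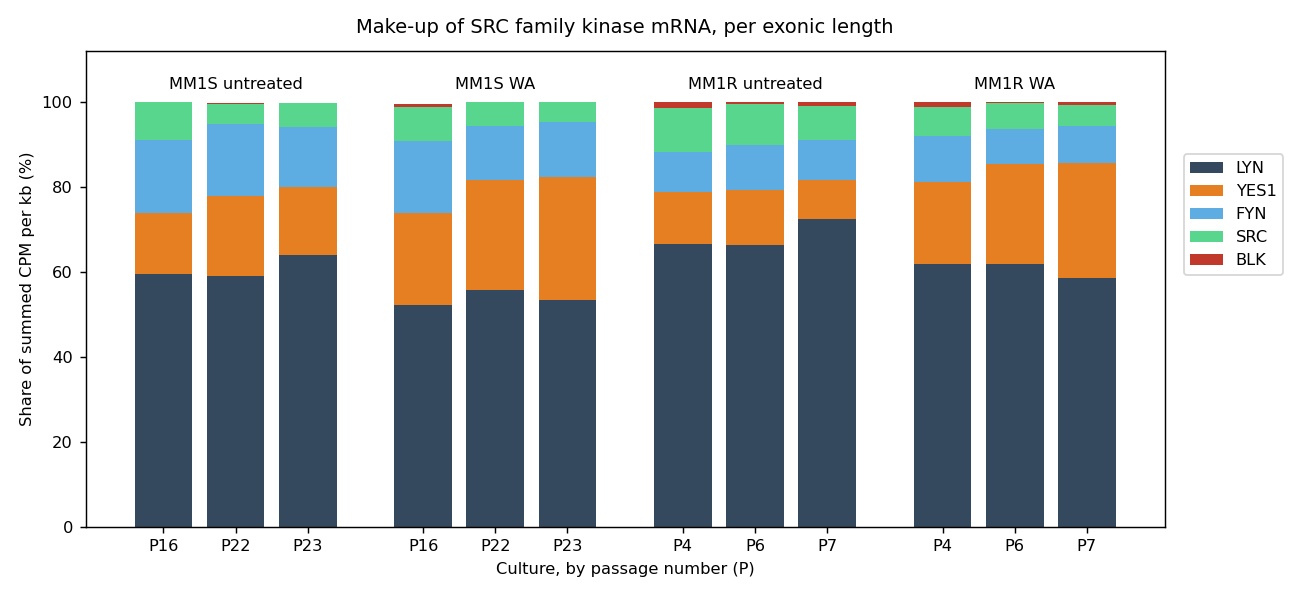
Share of each SRC family member in the summed CPM per kilobase of the family (y axis, %), 1 bar per culture with its passage number. LYN takes most of every bar, and the share of YES1 is 9.26% to 18.9% in the untreated cultures and 19.3% to 29.0% with WA; LCK and FGR are too low to be drawn.

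The level of CSK relative to that sum fell in turn. CSK per kilobase over the family sum was 6.93, 5.80 and 5.97 in untreated MM1S and 4.70, 4.37 and 3.61 with WA. In MM1R it was 5.81, 6.44 and 6.72 untreated and 5.30, 5.61 and 4.10 with WA. The ranges of untreated and WA cultures did not overlap in either line. The ratio is one of mRNA levels and depends on the exonic lengths used, and it was not tested apart from its parts.

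The genes whose log2(CPM + 0.5) ran closest to each member over the 12 cultures are a description, since all points share their libraries, lines and treatments. YES1 was closest to NCOA7 (r = 0.98), ABL1 to SYAP1 (0.98), CSK to MRPL20-AS1 (0.97), BLK to AZIN1-AS1 (0.94), FYN to LINC01250 (0.93), SRC to TUSC1 (0.92) and LYN to VIM (0.91). With BTK, the correlation was 0.86 for ABL1 and -0.89 for FYN, each of which separates the lines.

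Among 6 kinases close to the members, 2 were tested, and FRK, a relative of the SRC family without its membrane anchor, rose in both lines. Its CPM went from 3.57 ± 0.15 (SD, n = 3) to 17.3 ± 5.95 in MM1S and from 4.07 ± 0.45 to 16.0 ± 4.85 in MM1R. These are log2FC values of 2.27 (SE 0.26, adjusted p = 0.00012) in MM1S and 1.97 (SE 0.26, adjusted p = 0.00031) in MM1R, and both calls held with each library left out. ABL2, the paralog of ABL1, was not called in any comparison, and neither gene was called between the lines.

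Of 20 regulators of SRC family kinases, 19 were tested. With WA, 2 rose and 0 fell in MM1R, and 1 rose and 0 fell in MM1S, where 14% and 10.5% of all genes were called. The median log2FC values were -0.00 and -0.02 against 0.01 for all genes in both lines. DOK2, a docking protein phosphorylated by tyrosine kinases that damps RAS signalling, rose from 26.4 ± 2.19 to 120 ± 31.4 CPM in MM1S (log2FC 2.18, SE 0.18, adjusted p = 8.4e-06) and from 18.7 ± 1.94 to 71.8 ± 11.6 CPM in MM1R (1.94, SE 0.18, adjusted p = 2.3e-05). PAG1, the membrane adaptor that brings CSK to SRC family kinases, rose in MM1R from 6.17 ± 1.54 to 11.1 ± 1.65 CPM (0.84, SE 0.21, adjusted p = 0.018). That call was lost without untreated MM1R of passage 6 (adjusted p = 0.058) or 7 (0.075) or WA-exposed MM1R of passage 4 (0.073). In MM1S the log2FC of PAG1 was 0.64 (adjusted p = 0.056), and with passage as a block it was 0.63 (adjusted p = 0.0079), past the limit. With the block, 3 regulators were higher and 2 lower in MM1R and 4 were higher and 2 lower in MM1S, where 29.1% and 24.1% of all genes were called.

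Between the untreated lines, 1 of these 19 regulators was higher and 2 were lower in MM1R, where 2.97% of all genes were called. PTPRJ, a receptor-type phosphatase that acts on the inhibitory tail of the family, was at 2.61 ± 1.32 CPM in MM1S and 9.85 ± 0.92 CPM in MM1R (log2FC 1.92, SE 0.29, adjusted p = 0.00091). PAG1 was lower (log2FC -1.44, SE 0.21, adjusted p = 0.00065). DOK1, a further docking protein, was lower (log2FC -1.04, SE 0.13, adjusted p = 0.00026), and its log2FC was -0.97, inside the fold limit, without untreated MM1S of passage 23. With WA in both lines PTPRJ was higher (2.17, adjusted p = 0.00041) and PAG1 lower (-1.24, adjusted p = 0.0014), the latter with adjusted p = 0.014 without WA-exposed MM1R of passage 6. The median log2FC of the 19 was -0.08 untreated and -0.04 with WA, against 0.01 and -0.01 for all genes.

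Of 17 substrates and partners at the B-cell receptor, 13 were tested. In untreated MM1R 2 were higher and 0 lower, where 2.97% of all genes were called, with a median log2FC of 0.19. These were BTK (log2FC 2.84, SE 0.17, adjusted p = 1.7e-07) and CD79A, a substrate of LYN, with 2 to 5 reads in untreated MM1S and 38 to 70 in untreated MM1R (4.13, SE 0.39, adjusted p = 1.9e-05). Like BLK, CD79A passed the filter on low counts through the MM1R cultures. It had 4 to 5 reads in MM1S with WA, so that its log2FC values between the lines rest on few MM1S reads. With WA in both lines 3 were higher, BTK (2.86), CD79A (3.87) and CD79B (1.23, SE 0.25, adjusted p = 0.006), with a median of 0.17, where 3.04% of all genes were called. The CD79B call was lost without WA-exposed MM1S of passage 22 (adjusted p = 0.032) or 23 (0.031) or WA-exposed MM1R of passage 4 (0.015), 6 (0.02) or 7 (0.018), and when the 6 WA libraries were fitted alone (0.01). WA against untreated called 1 in MM1R, BTK, lower (-0.51, SE 0.15, adjusted p = 0.044), and 0 in MM1S, with medians of -0.18 and -0.15. Of all genes, 14% and 10.5% were called there. The BTK call was lost without any 1 of the 6 MM1R libraries (adjusted p = 0.069 to 0.16), and without untreated MM1S of passage 22 (0.057) or WA-exposed MM1S of passage 23 (0.052), and where every library had to hold 10 reads (0.054). With passage as a block, 1 was higher and 3 were lower in MM1R, where 29.1% of all genes were called. In MM1S 1 was higher and 2 were lower, where 24.1% were called, the latter being BTK (-0.52, adjusted p = 0.041) and CD79B (-0.37, adjusted p = 0.027).

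Of 14 adhesion and cytoskeletal substrates, 11 were tested and 0 were called between the lines in either treatment. Of all genes, 2.97% were called there untreated and 3.04% with WA. NEDD9, a docking protein of focal adhesions that SRC family kinases phosphorylate, fell with WA from 34.01 ± 4.34 to 17.4 ± 0.84 CPM in MM1S (log2FC -0.96, SE 0.13, adjusted p = 0.00042) and from 38.7 ± 5.29 to 17.2 ± 0.90 CPM in MM1R (-1.17, SE 0.13, adjusted p = 0.00011). NEDD9 was the only call in each line, where 10.5% of all genes were called in MM1S and 14% in MM1R. With passage as a block 3 were higher and 2 lower in each, where 24.1% and 29.1% of all genes were called. The medians of the 11 with WA were 0.06 and 0.13.

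Of 13 regulators and partners of ABL1, 11 were tested. Between the lines 0 were called in either treatment, where 2.97% of all genes were called untreated and 3.04% with WA. With WA, 1 fell in each line. Of all genes, 4.23% fell in MM1S and 6.46% in MM1R. The gene BCR, the fusion partner of ABL1 in leukaemia and no part of the B-cell receptor, fell from 250 ± 29.7 to 180 ± 13.2 CPM in MM1S (log2FC -0.47, SE 0.11, adjusted p = 0.014) and from 301 ± 7.96 to 225 ± 12.8 CPM in MM1R (-0.42, SE 0.11, adjusted p = 0.019). Its MM1S call was lost without untreated MM1S of passage 16 (adjusted p = 0.063) or WA-exposed MM1S of passage 23 (0.067). Its MM1R call was lost without untreated MM1R of passage 7 (0.055) or WA-exposed MM1R of passage 4 (0.067) or 7 (0.071). The interaction of line and WA was called for 0 genes of the 5 lists by edgeR, as for 0 of all tested genes.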

How the data were processed

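RNA from 12 cultures of MM1S and MM1R was sequenced, and groups and passages follow the sample labels. The authors deposited raw counts per gene without normalization. Per the labels' processing notes, reads were checked with FastQC 0.11.5 and mapped with STAR 2.7.3a to hg19. Neither the gene models counted nor the use of strand is given in the sources used here, so that exonic lengths may differ from theirs. A second deposited table, of counts divided by DESeq2 size factors, was not used.

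Counts were analysed in R 4.3.3 with edgeR 4.0.16 (filterByExpr with a minimum count of 10, TMM, quasi-likelihood test, 1 fit of 12 libraries). DESeq2 1.42.0 served as the alternative test, and limma 3.58.1 was loaded with edgeR. The code was tested on simulated data. At an adjusted p of 0.05, 4.42% to 5.08% of the calls by edgeR there were false, and 11.1% to 15.7% of those by DESeq2. Depth was 17625110 to 19368343 reads per culture. The lines were compared at an adjusted p of 0.01 with a log2FC beyond 1, as in the study's methods, and WA and the interaction at an adjusted p of 0.05. Exonic lengths and gene positions come from GENCODE on GRCh37. The members and lists were chosen with earlier results of these data known. Named are all members, up to 3 called genes per list and comparison, and the gene most like each member. Some results that this rule would name are not reported here.

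Passage number pairs untreated and WA cultures within a line per the labels. The correlations of their deviations from the group means were 0.74, 0.26 and 0.49 in MM1S and 0.43, 0.22 and 0.25 in MM1R, by rising passage number. Between unlike passages they were -0.65 to 0.42 in MM1S and -0.38 to 0.11 in MM1R. In MM1S, untreated passage 22 gave 0.35 with WA passage 23, and untreated passage 23 gave 0.42 with WA passage 22. These values thus do not separate the pairs of passages 22 and 23. A fit with passage as replicate block was run.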

Additional observations from a re-analysis of the deposited data

How the results depend on the processing

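The number of members called between the untreated lines (0) was 3 at an adjusted p of 0.05 with no fold limit and 1, BLK, with no filter on low counts. With WA in both lines (0) it was 2 at an adjusted p of 0.05 with no fold limit. For WA in MM1S (1) it was 2 with no filter on low counts, with DESeq2, with replicate block and with DESeq2 and replicate block, the added gene being YES1, and the block changed no other call of a member. Among the genes of the lists, it added calls, which stand beside each list. Over all genes, the replicate block moved the calls for WA from 1476 to 3399 in MM1S and from 1973 to 4094 in MM1R (2930 and 3424 with DESeq2 and the block). The calls between the lines moved from 419 untreated and 428 with WA to 1681 and 1690 at an adjusted p of 0.05 with no fold limit, 811 and 819 with no filter, and 234 and 222 where every library had to hold 10 reads, and those for the interaction from 0 to 11 with no filter, 1 with DESeq2 and 6 with DESeq2 and the block. With 1 library left out they were 268 to 537, 264 to 649, 726 to 1621 (WA in MM1S), 950 to 2396 (WA in MM1R) and 0. No paired analysis was possible for the comparison of the lines because they share no passage number. With 1 library left out in turn, the members called ranged from 0 to 3 for WA in MM1R, from 0 to 2 for WA in MM1S and from 0 to 0 in the other comparisons.

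With the longest annotated transcript, the mean level per kilobase over the 12 cultures was 1.52 CPM in place of 1.02 for SRC, 3.68 in place of 1.80 for FYN, 0.149 in place of 0.0662 for BLK and 132 in place of 79.5 for CSK. With a pseudocount of 0.1 CPM, the mean log2 change of BLK in the MM1R pairs was -0.35 in place of -0.20. The log2 fold change of SRC between the lines with WA was 0.0089 in place of -0.02 where every library had to hold 10 reads, and -0.11 to 0.11 with 1 library left out. Among other differences that were not called, those whose sign turned when 1 library was left out ranged from -0.10 to 0.16 for SRC, -0.18 to 0.060 for LYN and -0.12 to 0.054 for FYN with WA in MM1S, from -0.18 to 0.046 for FYN and -0.84 to 0.10 for BLK with WA in MM1R, from -0.36 to 0.069 for YES1 between the lines with WA, and from -2.59 to 4.64 for BLK with WA in MM1S, whose reads lay in passage 16. For the interaction of line and WA the ranges were -0.14 to 0.10 for FYN and -5.02 to 2.22 for BLK. The cause was not tested. Other changes of the members kept their direction. Genes with few reads, BLK above all, are limited by depth.

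Of the log2FC values of the members under these alternatives, 581 kept their direction and their side of the limit, 14 lost and 6 gained a call, and 21 turned sign.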
